A study of Danio rerio with 34 samples.

Results

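RNA of the vascular Tie receptors and of proteins of endothelial cell contacts was compared between sorted cell types of HSPC generation in the zebrafish embryo. The 10 genes were chosen by name from the table of RNA-seq counts. They were the receptors *tie1* and *tek* and the ligand *angpt1*, the junction genes *cdh5*, *pecam1*, *esama* and *cldn5b*, and the adaptor or secreted-protein genes *she*, *egfl7* and *mmrn2b*. All 10 were among the 47048 genes of the table, and all 10 passed the filter on low counts that left 21161 genes to test. Hematopoietic stem and progenitor cells (HSPCs), the hemogenic endothelium they come from (HECs) and other endothelial cells (ECs) were sorted from the trunk, which the labels call AGM, of embryos at 36 hpf. By the methods of the study every embryo carried the reporters *kdrl*:mCherry and *runx1*:en-GFP, and 500 cells were sorted per library. HECs are defined there as positive for both reporters, whereas the gates for ECs and HSPCs are not given in the sources used here. One arm were siblings and the other *dnmt1* mutants of the s872 allele, *dnmt1* being the gene of the maintenance DNA methyltransferase. ECs and HECs had 3 libraries per genotype (replicates 1 to 3) and HSPCs had 2 (replicates 2 and 3), which makes 16 libraries in all. The number of embryos behind a library is not stated, so *P*-values measure only the spread between these libraries, which may be in part technical.

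Tie receptors are tyrosine kinases of the endothelial surface. Angiopoietin 1 activates Tek (also called Tie2), Tie1 modulates that signal, and the pathway is known for keeping vessels quiet and their cell contacts closed. Those contacts are built from adherens junctions, in which VE-cadherin (*cdh5*) is the endothelial cadherin, and from tight junctions with claudins, beside adhesion molecules of the immunoglobulin family. In the dorsal aorta, HECs leave this epithelium one at a time and become HSPCs in the endothelial-to-hematopoietic transition (EHT). The comparisons below ask between which of the sorted pools, and in which genotype, the RNA of these genes differed. All pools were of the same age, so a step or a fall below compares pools and does not follow cells over time.

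Counts on genes ranged from 3125048 to 13201410 per library. All levels are CPM, counts scaled to the effective size of each library, so they can be compared between libraries but not between genes of different length. The labels disagree about genotype: title and genotype field of each RNA-seq sample give one genotype and the description field the opposite one. The titles and the column names were followed here, and if the description field were right, the values given for siblings and for mutants would trade places and every direction between them would be reversed. RNA of *dnmt1* itself did not settle this, since its libraries overlapped between genotypes in all 3 cell types (43.6 to 108 CPM in sibling and 77.4 to 117 CPM in mutant ECs) and an effect of the allele on RNA level is not given.

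Marker genes bear on what each label holds. The summed level of 12 endothelial markers was 4791 to 8058 CPM in the ECs, 2058 to 4084 CPM in the HECs and 186 to 310.1 CPM in the HSPC libraries, where 7 to 11 of the 12 had a count and *tal1*, a marker of blood progenitors as well, gave 122 to 256 CPM of the sum. The 12 HSPC markers summed to 634 to 2337 CPM in the HSPC libraries, 1497 to 6091 CPM in the HECs and 401 to 1407 CPM in the ECs, so the HSPC libraries overlapped both other cell types. Their median log2 fold change (11 tested) was 0.55 in siblings and 0.73 in mutants for HSPCs against ECs, and -2.21 and -2.60 against HECs. Of 3 defining genes among the 12, *runx1*, the master factor of definitive hematopoiesis, was at 1.44 to 11.4 CPM in HSPCs against 16.4 to 79.4 CPM in the HECs, and *myb*, a progenitor factor, was at 11.5 to 16.4 CPM against 55.8 to 149.9 CPM. *gata2b*, an early hemogenic factor, was at 0 to 1.96 CPM against 20.0 to 109 CPM. Erythroid markers (7 genes) summed to 30254 to 135988 CPM in HSPCs, to 2709 to 12654 CPM in HECs and to 0 to 1802 CPM in ECs, without overlap between the cell types. Skeletal muscle markers (6 genes) summed to 23934 and 18111 CPM in the sibling and mutant HSPC libraries of replicate 3, and to 3.16 and 433 CPM in those of replicate 2. They reached 5773 CPM in the mutant HEC library of replicate 1, whereas no other EC or HEC library held more than 201 CPM. Neural markers (6 genes) summed to 773 to 2248 CPM in HSPCs and to at most 400.1 CPM in any other library. The HSPC libraries thus stood apart in markers of other cell types as well as in endothelial markers, and that HEC library in muscle markers. Myeloid markers (7 genes) summed to 493 to 10603 CPM in HECs and to 4.18 to 971 CPM in ECs. Erythroid and myeloid sums were both higher in HECs than in ECs of the same genotype and replicate. The part of all this in the differences below was not tested. In such sorted pools fewer cells of a type and less RNA per cell cannot be told apart.

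Among the Tie genes, the receptors were highest in ECs, lower in HECs and lowest in HSPCs, whereas the ligand was highest in HECs. In the order of the replicates, *tie1* was at 62.0, 149.7 and 105 CPM in the ECs of siblings, against 89.3, 93.5 and 62.9 CPM in those of mutants. HECs had 28.0, 52.8 and 16.3 CPM of *tie1* in siblings and 44.2, 40.2 and 23.9 CPM in mutants. All 4 HSPC libraries had 0 counts of it. The HEC libraries of a genotype lay below its EC libraries without overlap, as did 8.68% of all genes tested in siblings and 11.4% in mutants. *tek* was at 213, 244 and 266 CPM in the ECs of siblings, against 162, 225 and 125 CPM in those of mutants. Its levels in HECs were 58.0, 143 and 72.4 CPM in siblings and 76.3, 93.7 and 99.3 CPM in mutants. HSPCs had 0 and 20.6 CPM of *tek* in siblings and 7.19 and 3.98 CPM in mutants, so the 2 sibling HSPC libraries differed more from each other than did the genotypes. The library with 20.6 CPM, replicate 3, also held *kdrl*, the endothelial VEGF receptor of the reporter, at 16.8 CPM, while *tie1* and *cdh5* were at 0 in it. Its 12 endothelial markers summed to 251 CPM, below the 310 CPM of sibling HSPC replicate 2, and its muscle markers to 23934 CPM. The part of either in the level of *tek* was not tested.

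The ligand gene went the other way. *angpt1*, which in mammals is made mainly by the mural and mesenchymal cells around vessels, was at 21.4, 6.08 and 8.35 CPM in the ECs of siblings, against 16.7, 16.2 and 36.2 CPM in those of mutants. HECs had 67.6, 74.6 and 48.1 CPM in siblings and 59.7, 57.9 and 43.4 CPM in mutants. All 6 HEC libraries lay above all 6 EC libraries. Within a genotype, 9.9% of all genes tested in siblings and 12.5% in mutants lay higher in HECs without overlap. The share over both genotypes together was not computed. HSPCs had 3.16 and 0.254 CPM in siblings and 6.75 and 0 CPM in mutants, below every EC library of their genotype. The 6 mural and mesenchymal markers summed to 128 to 3574 CPM in ECs and to 9.82 to 215 CPM in HECs. HSPC and erythroid markers, as given above, and myeloid markers (7 genes, 493 to 10603 CPM in HECs and 4.18 to 971 CPM in ECs) were higher in HECs, and the part of these 4 lists in the level of *angpt1* was not tested.

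**Figure D1:**
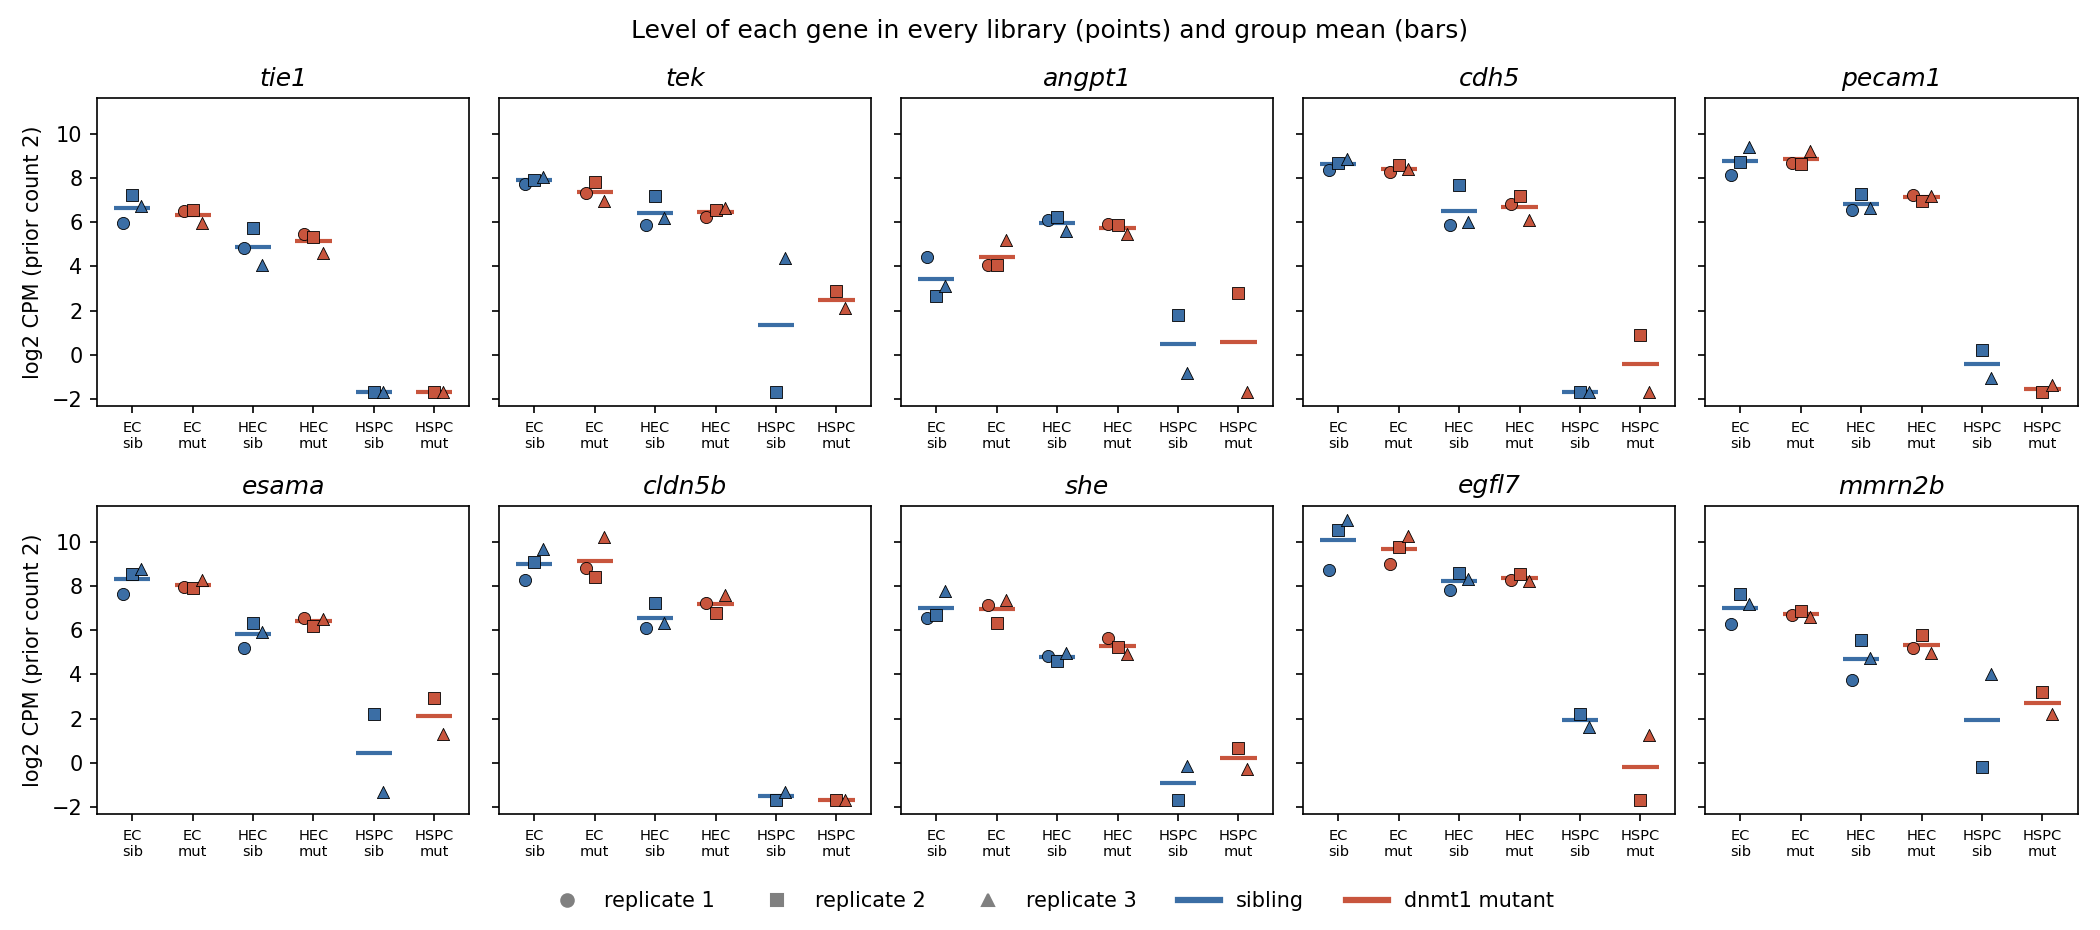
Level of each of the 10 genes (log2 CPM with a prior count of 2, vertical axis) in ECs, HECs and HSPCs of siblings (blue) and *dnmt1* mutants (red). Each point is a library, its shape gives the replicate, and bars are group means. For 9 genes the ECs lie highest and the HSPCs lowest, whereas *angpt1* lies highest in HECs, and the lowest points, at about -1.7, are libraries with 0 counts.

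The 4 junction genes shared 1 order, ECs above HECs above HSPCs, with no overlap of neighbouring cell types within a genotype. Of all genes tested, 8.68% in siblings and 11.4% in mutants lay lower in HECs than in ECs in that way. For HSPCs against HECs the shares were 14.9% and 17.1%, and the share with both steps was not computed. *cdh5* was at 325, 408 and 464 CPM in the ECs of siblings, against 305, 382 and 339 CPM in those of mutants. HECs had 57.8, 208 and 63.6 CPM of it in siblings and 114, 146.5 and 67.6 CPM in mutants. Of the HSPC libraries only mutant replicate 2 had any count, 7 in all or 1.52 CPM. *pecam1*, an adhesion molecule of endothelial and blood cells, was at 282, 422 and 672 CPM in the ECs of siblings, against 415, 396 and 595 CPM in those of mutants. It stood at 94.4, 155 and 99.4 CPM in the HECs of siblings, against 150.1, 125 and 144 CPM in those of mutants. HSPCs had 3 and 2 counts of *pecam1* in siblings (0.863 and 0.169 CPM) and 0 and 1 count in mutants.

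The tight junction genes behaved likewise. *cldn5b*, a zebrafish co-orthologue of the claudin that seals the blood-brain barrier, was at 307, 545 and 829 CPM in the ECs of siblings, against 445, 337 and 1199 CPM in those of mutants. In HECs it was at 67.6, 148 and 80.1 CPM in siblings and at 149, 110.2 and 192 CPM in mutants. A single count was found in all HSPC libraries together, in sibling replicate 3. *esama*, an adhesion molecule found at endothelial tight junctions, was at 196, 376 and 430.2 CPM in the ECs of siblings, against 246, 241 and 312 CPM in those of mutants. HECs had 36.1, 80.3 and 60.7 CPM in siblings and 95.1, 72.8 and 89.5 CPM in mutants. Unlike the other 3, *esama* was still counted in every HSPC library, at 4.31 and 0.0846 CPM in siblings and at 7.41 and 2.17 CPM in mutants. The junction genes therefore left between 0 and 64 counts per HSPC group.

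The adaptor and secreted-protein genes followed the same order in ECs and HECs and divided in HSPCs. *she*, an SH2-domain adaptor of vessels, was at 93.4, 104 and 217 CPM in the ECs of siblings, against 140.3, 80.7 and 165 CPM in those of mutants. HECs had 28.6, 24.0 and 31.0 CPM of it in siblings and 50.3, 37.2 and 29.7 CPM in mutants. It was at most 1.31 CPM in any HSPC library. *egfl7*, a gene for a secreted endothelial factor, was at 418, 1501 and 2029.6 CPM in the ECs of siblings, against 509, 877 and 1247 CPM in those of mutants. HECs had 223, 380.1 and 316 CPM in siblings and 307, 374 and 304 CPM in mutants, and HSPCs had at most 4.31 CPM. Replicate 1 of the ECs was lowest for *egfl7* in both genotypes. *mmrn2b*, a gene for an endothelial matrix protein of the EMILIN family, was at 76.5, 199 and 144 CPM in the ECs of siblings, against 102, 116 and 97.8 CPM in those of mutants. HECs had 13.3, 46.3 and 26.4 CPM of it in siblings and 36.8, 54.7 and 31.2 CPM in mutants. HSPCs had 0.575 and 16.2 CPM of it in siblings and 8.93 and 4.27 CPM in mutants. The high sibling library was again replicate 3, whose *mmrn2b* level lay within the range of the sibling HECs.

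At the step from ECs to HECs in siblings, 9 genes had lower and *angpt1* had higher levels in all 3 HEC libraries than in all 3 EC libraries. The fitted difference was smallest for *tek*, -1.40±0.85 (log2 fold change±s.e.), and largest for *cldn5b*, -2.51±0.55, followed by *esama* at -2.50±0.76 and *she* at -2.31±0.54. *tie1* differed by -1.71±0.49, *cdh5* by -1.86±0.76, *pecam1* by -1.98±0.45, *egfl7* by -2.10±0.70 and *mmrn2b* by -2.28±0.76, and *angpt1* was 5.29-fold higher (2.40±1.09). Over the 10 genes the median was -2.04, against 0.06 over all genes tested.

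None of these differences passed the test. A gene was called when its adjusted *P*-value over all genes tested was under 0.05 and its log2 fold change was at least 1 in size (edgeR, all 16 libraries in one fit). In this comparison 4 genes were called, 0.0189% of those tested, and 0 of the 10, with 9 of the 10 at an unadjusted *P*-value under 0.05 and the lowest adjusted *P*-value at 0.106 (*cldn5b*). Of all genes tested, 8.68% lay lower in HECs without overlap and 9.9% lay higher. The replicate numbers paired these libraries, and with the replicate block 198 genes (0.936%) and 2 of the 10 were called, *pecam1* (adjusted *P*=0.0461) and *cldn5b* (adjusted *P*=0.0378). DESeq2 called 1142 genes (6.29%) and 7 of the 10, all but *tek*, *angpt1* and *cdh5*. Without EC sibling replicate 1, whose levels were the lowest of the sibling ECs for all of the 10 genes but *angpt1*, edgeR called 190 genes (0.904%) and the same 2 as with the block. Leaving out the lowest EC library widens such a difference by construction. That library also held 1371 CPM of erythroid, 971 CPM of myeloid and 1407 CPM of HSPC markers. The other sibling ECs had at most 5.76, 12.5 and 726 CPM of these. Mutant EC replicate 1 likewise held 1802, 735 and 1001 CPM of them, against at most 183, 131 and 468 CPM in the other mutant ECs. It was the lowest of its group only for *cdh5* and *egfl7*. The part of these markers was not tested. Sibling HEC replicate 2 held 493 CPM of myeloid markers, against 4700 and 9128 CPM in replicates 1 and 3. It was the highest sibling HEC library for all of the 10 genes but *she*. The mutant HEC library lowest in myeloid markers, replicate 1 at 2257 CPM, was highest of its group only for *tie1*, *angpt1*, *pecam1*, *esama* and *she*. The part of myeloid content in these levels was not tested either.

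Mutants showed the same signs at this step with smaller fitted differences. The 9 genes again lay lower and *angpt1* higher in HECs without overlap, where 11.4% of all genes lay lower and 12.5% higher in that way. Fitted differences ran from -0.93±0.84 (*tek*) to -2.13±0.54 (*cldn5b*), and that of *angpt1* was 1.22±1.05. The median over the 10 genes was -1.53. edgeR called 1 gene in all (0.00473% of those tested) and 0 of the 10, of which 6 had an unadjusted *P*-value under 0.05. The replicate block brought 168 genes (0.794%) and still 0 of the 10, DESeq2 called 1256 genes (6.69%) and 3 of the 10 (*pecam1*, *cldn5b* and *she*), and a fit of these 2 groups alone called 82 genes (0.55%) and 2 of the 10 (*pecam1* and *esama*, both at an adjusted *P* of 0.0496). Without HEC mutant replicate 1, the library with muscle markers, edgeR called 0 genes and 0 of the 10.

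In siblings, all 4 junction genes, *tie1*, *she* and *egfl7* were lower in the HSPC libraries than in the HEC libraries. edgeR called 294 genes (1.39% of those tested, 0.922% as lower) and 7 of the 10, all of them lower in HSPCs. With 0 counts in both HSPC libraries, *tie1* was at least 130.3-fold lower than in HECs (adjusted *P*=0.000425) and *cdh5* at least 465-fold lower (adjusted *P*=0.00308), both set against a floor of 3 counts over the group. *cldn5b*, with 1 count in HSPCs, was 1398-fold lower by pooled counts (95% interval 251 to 55244, counting error only, adjusted *P*=0.00036). *pecam1* fell by 8.09±0.75 on the log2 scale (adjusted *P*=0.000141), and smaller falls were found for *egfl7* (-6.44±1.04, adjusted *P*=0.0066), *she* (-6.09±0.81, adjusted *P*=0.00181) and *esama* (-4.92±1.05, adjusted *P*=0.0338). These sizes differed with the HSPC library. *esama* was 13.7-fold lower without replicate 3 and 714-fold without replicate 2, which left 1 count (pooled ratio, 95% interval 128 to 28209), and the same pooled ratio of *pecam1* was 127 (43.4 to 616) and 647 (179 to 5344). *she* was 44.4-fold lower without replicate 2 and was at least 33.9-fold lower without replicate 3, which left 0 counts.

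The other receptor, the ligand and the matrix gene did not pass. *tek* differed by -3.11±1.07 (adjusted *P*=0.164), *angpt1* by -5.36±1.54 (adjusted *P*=0.106) and *mmrn2b* by -1.73±0.87 (adjusted *P*=0.323). Only *mmrn2b* had overlapping groups, and the 9 others lay lower in HSPCs without overlap, as did 14.9% of all genes. Without HSPC sibling replicate 3, the library that held muscle markers as well as *kdrl*, the falls were larger. *tek* had 0 counts left and was at least 97.4-fold lower, and *mmrn2b* had 2 counts left (pooled ratio 48.8, 95% interval 13.5 to 404). The median of the 10 genes was -6.27, against 0.0028 over all genes tested. A fit of the sibling HECs and HSPCs alone called 0 genes and 0 of the 10, with adjusted *P*-values of the 7 genes from 0.0505 to 0.217. *esama* was also lost without any one of the HEC libraries (adjusted *P* from 0.0526 to 0.0753), and *egfl7* without either HSPC library (0.071 and 0.0661).

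In mutants the same 7 genes were lower in HSPCs than in HECs, among 438 genes called (2.07%, and 1.21% as lower). *tie1* was at least 198-fold lower (adjusted *P*=0.000378) and *cldn5b* at least 1005-fold lower (adjusted *P*=0.000182), each with 0 counts in HSPCs. *pecam1*, with 1 count there, was 2594-fold lower by pooled counts (95% interval 465 to 102476, adjusted *P*=4.14e-05). *egfl7* fell by 8.09±1.13 on the log2 scale (adjusted *P*=0.00218), and smaller falls were found for *cdh5* (-7.46±1.24, adjusted *P*=0.00841), *she* (-5.51±0.77, adjusted *P*=0.00218) and *esama* (-4.19±0.99, adjusted *P*=0.0431). *tek* (-4.02±1.13, adjusted *P*=0.0831), *angpt1* (-4.05±1.41, adjusted *P*=0.142) and *mmrn2b* (-2.64±0.91, adjusted *P*=0.139) did not pass. All 10 lay lower in HSPCs without overlap, as did 17.1% of all genes. The call of *esama* was lost without any one of the 5 libraries (adjusted *P* from 0.0922 to 0.233), that of *cdh5* in a fit of these groups alone (adjusted *P*=0.057), a fit that in turn called *tek* (-3.98, adjusted *P*=0.0295), and *angpt1* was called without HSPC mutant replicate 2 (adjusted *P*=0.0144). Folds also moved. Without HSPC replicate 2 *cdh5* had 0 counts left and was at least 442-fold lower, and without replicate 3 it was 70.7-fold lower, while *egfl7* was 155-fold lower without replicate 2 and was at least 491-fold lower, with 0 counts left, without replicate 3.

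**Figure D2:**
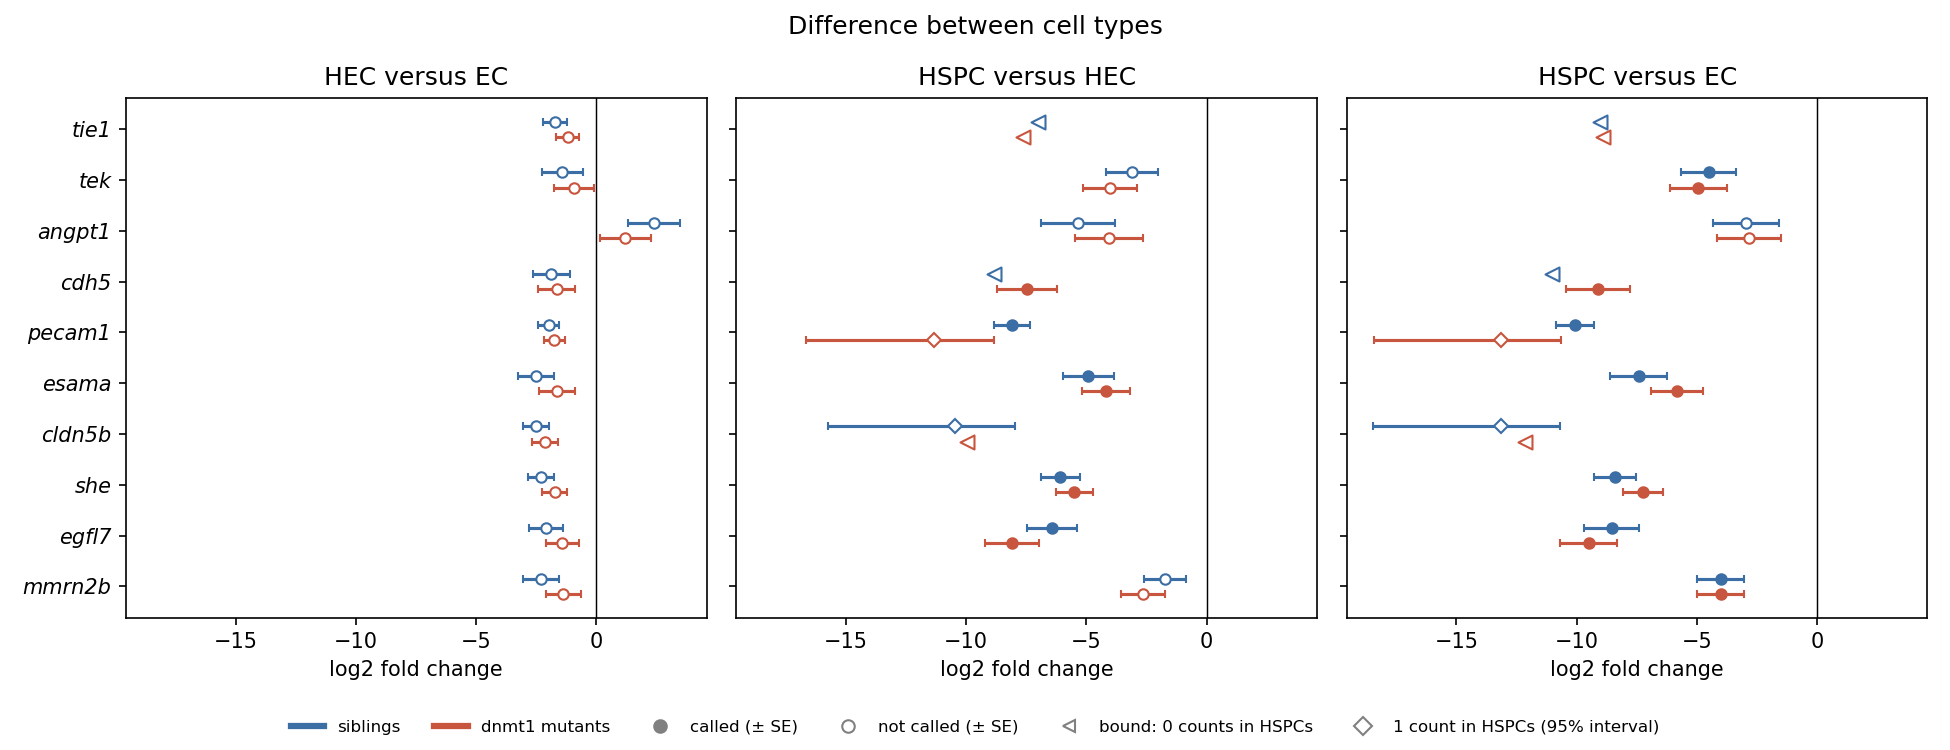
Log2 fold change of each of the 10 genes between cell types, in siblings and in mutants, with bars of ±1 s.e. Filled points were called and open points were not, a left-pointing triangle is a bound for a gene with 0 counts in HSPCs, and a diamond is the pooled ratio of a gene with 1 count there with its 95% interval (both were called). No gene was called between HECs and ECs, and 7 of 10 between HSPCs and HECs and 9 of 10 between HSPCs and ECs were called lower.

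Between ECs and HSPCs, every gene but *angpt1* was called lower in HSPCs, and *angpt1* lay lower there without being called. These comparisons share their HSPC libraries with those above. In siblings 1139 genes were called (5.38%, and 3.3% as lower) with 9 of the 10. *tie1* was at least 516-fold lower (adjusted *P*=8.91e-05), *cdh5* at least 2074-fold lower (adjusted *P*=0.000475), and *cldn5b* 9139.6-fold lower by pooled counts (95% interval 1639.9 to 361038, adjusted *P*=4.83e-05). *pecam1* was 1076-fold lower (log2 fold change -10.07±0.81, adjusted *P*=2.05e-05), *egfl7* 374-fold, *she* 338-fold and *esama* 171-fold. The smallest of the fitted falls among the genes called were those of *tek*, 22.7-fold (-4.51±1.15, adjusted *P*=0.0354), and *mmrn2b*, 16.2-fold (-4.01±0.97, adjusted *P*=0.0265). *angpt1* differed by -2.95±1.39 (adjusted *P*=0.242). Only 2 HSPC libraries stood behind these folds, and they differed. *tek* was 11.1-fold lower without HSPC replicate 2, but at least 283-fold lower without replicate 3, which left 0 counts. *mmrn2b* was 8.20-fold lower without replicate 2 and 234-fold without replicate 3, which left 2 counts (pooled ratio, 95% interval 64.7 to 1934). For *esama* this was 77.2-fold without replicate 3 and 4051-fold without replicate 2, which left 1 count (727 to 160037), and for *pecam1* 569-fold (195 to 2760) and 2900.3-fold (803 to 23953). *she* was 215-fold lower without replicate 2 and at least 176-fold lower without replicate 3, with 0 counts left, whereas leaving out any 1 of the 5 libraries moved the fold of *egfl7* by less than 1.5 times. The order of the genes by fold therefore depended on the library.

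Mutant ECs and HSPCs gave 744 calls (3.52%, and 2.36% as lower) with the same 9 genes lower. *tie1* was at least 485-fold lower, *cldn5b* at least 4539.6-fold lower and *pecam1* 8965-fold lower by pooled counts (95% interval 1609 to 354154). *egfl7* was 726-fold lower, *cdh5* 552-fold and *esama* 56.9-fold, while *tek* (30.8-fold) and *mmrn2b* (16.1-fold) again had the smallest fitted falls among those called. Here too a single HSPC library moved the folds: without replicate 2 *egfl7* was 412-fold, *esama* 121-fold and *mmrn2b* 24.4-fold lower, and *cdh5*, with 0 counts left, at least 1572-fold. Without replicate 3 *cdh5* was 221-fold and *esama* 35.8-fold lower, and *egfl7*, with 0 counts left, at least 1425-fold. The median of the 10 genes was -8.47 in siblings and -8.17 in mutants (-8.08 with bounds in place of fitted values), against 0.18 over all genes tested in both. All 10 lay lower in HSPCs without overlap, as did 14.9% of all genes in siblings and 15% in mutants. In mutants, the calls of *tek* and *mmrn2b* were lost without any one of the 5 libraries (adjusted *P* from 0.0592 to 0.264 for *tek*), and in siblings both were lost without EC replicate 2 or EC replicate 3 (adjusted *P* of *tek* 0.0708 and 0.0745). *mmrn2b* was also lost without HSPC sibling replicate 2 (adjusted *P*=0.0756) and *esama* in mutants without HSPC replicate 3 (adjusted *P*=0.0918). A fit of sibling ECs and HSPCs alone called 366 genes (2.13%) and 6 of the 10, losing *tek*, *esama* and *mmrn2b*, and in mutants *angpt1* was called without HSPC replicate 2 (adjusted *P*=0.0151).

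Mutants were then compared with siblings within each cell type. None of the 10 genes passed the edgeR test in ECs, HECs or HSPCs, and none of the 21161 genes tested did (0% in each). By edgeR, 655 genes in ECs, 564 in HECs and 398 in HSPCs had an unadjusted *P* below 0.05 and the required fold, among them 0, 0 and 1 of the 10. DESeq2 called 37, 30 and 48 genes (0.197%, 0.155% and 0.248%) and 0 of the 10. Fitted differences in ECs ran from -0.58±0.68 (*egfl7*) to 0.95±1.05 (*angpt1*), and in HECs from -0.24±1.03 (*angpt1*) to 0.61±0.52 (*cldn5b*), with overlapping libraries for every one of the 10, while 6.35% of all genes in ECs and 4.82% in HECs did not overlap. Medians over the 10 genes were -0.27 in ECs and 0.21 in HECs, against 0 and -0.01 over all genes.

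Replicate numbers paired mutants with siblings, so pairs can be read as well. *tek* and *cdh5* were lower in the mutant in all 3 EC pairs, as were 9.95% of all genes tested. In all 3 HEC pairs *mmrn2b* was higher in the mutant, as were 9.39% of all genes, and *angpt1* lower, as were 9.29%. None was called with the replicate block, whose count over all genes between genotypes is not given here, so this is not particular to these genes. For *angpt1* in mutant ECs the highest library, replicate 3 at 36.2 CPM, was also highest in mural and mesenchymal markers, which summed to 3574 CPM there against 404 and 892 CPM in the others, and the part of this was not tested. In HSPCs, the low counts left little to compare: *pecam1* had 5 counts in siblings and 1 in mutants (pooled ratio 6.02, 95% interval 0.673 to 285), and *cdh5* had 0 and 7. *pecam1* and *egfl7* lay lower in mutant HSPCs without overlap, as did 9.35% of all genes.

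**Figure D3:**
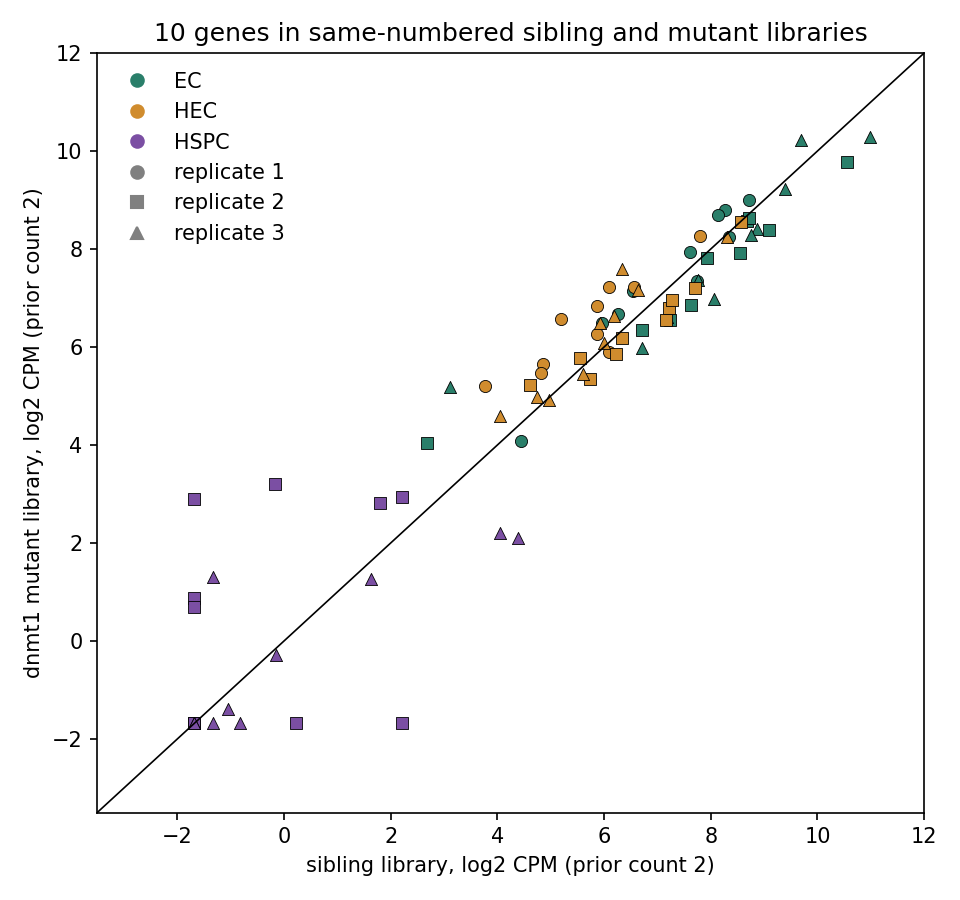
Log2 CPM (prior count of 2) of each of the 10 genes in the sibling library (horizontal axis) and the mutant library (vertical axis) of the same replicate number, with the line of equal levels. Colours give the cell type and shapes the replicate. EC and HEC pairs lie close to the line on both sides, and HSPC pairs lie at the low end and scatter more.

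The cell-type differences were also tested for a dependence on genotype. By edgeR 0 genes were called for each of the 3 steps, whereas 767, 474 and 500 genes had an unadjusted *P* below 0.05 and the required fold (HEC against EC, HSPC against HEC and HSPC against EC). Of the 10, 0, 2 and 1 were among those, the 2 being *cdh5* and *pecam1*, and the 1 being *cdh5*. In mutant and sibling HSPCs these rested on 7 and 0 counts of *cdh5* and on 1 and 5 counts of *pecam1*. DESeq2 called 36, 19 and 18 genes and 0 of the 10. For HEC against EC the fitted difference was less negative in mutants for 9 genes, by 0.92±1.03 for *mmrn2b*, and less positive for *angpt1*, by -1.19±1.47 (adjusted *P* of at least 0.999 for both). The smaller differences in mutants were therefore not shown to differ from those of siblings.

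Other genes of the Angiopoietin-Tie pathway were called lower in part. Of 17 tested, 0 were called between HECs and ECs. In HSPCs against HECs 1 was lower in each genotype, where 0.922% of all genes were lower in siblings and 1.21% in mutants. In HSPCs against ECs 3 were lower in siblings and 2 in mutants, where 3.3% and 2.36% of all genes were lower. None was higher. The 1 was *ptprb*, the endothelial phosphatase that acts on Tek and on VE-cadherin, at 158±16.6 CPM (mean±s.d.) in sibling ECs, 53.7±2.33 CPM in sibling HECs and 6.03±3.26 CPM in sibling HSPCs. From HECs to HSPCs its log2 fold change was -3.18±0.58 in siblings (adjusted *P*=0.0145) and -3.02±0.57 in mutants (adjusted *P*=0.0164). *foxo1a*, a forkhead factor restrained by signalling through Akt, fell from ECs to HSPCs (-3.09±0.60 in siblings and -2.40±0.58 in mutants), and *shc1*, an adaptor of receptor kinases, fell in siblings (-2.15±0.45). The list median for HSPCs against ECs was -0.90 in siblings and -2.22 in mutants, against 0.18 over all genes tested in both.

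Further genes of adherens and tight junctions were also called lower. Of 35 tested, 0 were called between HECs and ECs, and 4 in siblings and 6 in mutants were lower in HSPCs than in HECs (0.922% and 1.21% of all genes). In HSPCs against ECs 12 and 10 were lower (3.3% and 2.36% of all genes), and none was higher. *tjp1a*, which encodes the scaffold ZO-1, fell from ECs to HSPCs (log2 fold change -3.44±0.52 in siblings and -2.83±0.50 in mutants) but was still at 43.4±6.11 CPM in sibling HSPCs, from 471±83.0 CPM in ECs. *rasip1*, needed for vessel lumens, was also lower in HSPCs than in ECs (log2 fold change -10.46±1.54 in siblings and -7.28±1.32 in mutants), as was *jam2a*, a junctional adhesion molecule (-2.53±0.66 and -5.26±0.77). In HSPCs *rasip1* was at 0.339±0.479 CPM in siblings and 3.67±4.98 CPM in mutants, so the sizes of its fitted folds are imprecise. The list median for HSPCs against ECs was -1.41 in siblings and -1.09 in mutants. Partners and relatives of the adaptor and secreted genes (10 tested) gave 3 lower in HSPCs than in HECs and 5 lower than in ECs in each genotype, against the same shares of all genes, and none higher. They included *clec14a*, an endothelial lectin that binds Multimerin 2, at 532±83.3 CPM in sibling ECs, 122±49.1 CPM in HECs and 0.0423±0.0598 CPM in HSPCs. Another was *robo4*, an endothelial guidance receptor, which was lower in HSPCs than in ECs (-5.91±0.80 in siblings and -9.80±1.01 in mutants). It was at 2.61±0.85 CPM in sibling and 0.218±0.308 CPM in mutant HSPCs. At levels so near 0 the sizes of these folds are imprecise and do not compare the genotypes.

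Over the 16 libraries, the genes whose log2 CPM ran most closely with the mean profile of the 10 were *sele* (Pearson's r=0.996), *pcdh12* (0.996), *tm4sf18* (0.993), *iqgap2* (0.992) and *ecscr* (0.992). *sele* encodes the adhesion molecule E-selectin and *pcdh12* an endothelial protocadherin. *sele* was at 1453±655 CPM in sibling ECs, 381±199 CPM in sibling HECs and 0.212±0.299 CPM in sibling HSPCs, whereas *iqgap2* remained at 14.9±0.103 CPM in sibling HSPCs. Among the 10 themselves, the likeness to the other 9 was lowest for *angpt1* (r=0.674), then *mmrn2b* (0.863) and *tek* (0.893). These correlations describe libraries that fall into 3 cell types and share their depth and sort, and they carry no test.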

How the data were processed

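Sorted ECs, HECs and HSPCs of 36 hpf siblings and *dnmt1* mutants were analysed by RNA-seq. The authors trimmed reads with cutadapt, aligned them to GRCz11 with HISAT2 2.2.1 and deposited a table of HTSeq 0.12.4 counts per gene, not normalized (DESeq2 1.30.1 is named in the submitters' notes for their own comparisons). Annotation, strand setting and the treatment of reads that match several genes are not given in the sources used here, so paralogs such as *cldn5a*, *esamb* and *mmrn2a* may share reads with *cldn5b*, *esama* and *mmrn2b*. The labels' protocol describes single-cell libraries read mainly at the 3′ end, whereas the methods of the study describe pools of 500 cells. The 5 tallies of reads on no gene (45.8% of all) were left out. Tables of the authors' fold changes and *P*-values, and methylation files, were not used here.

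Counts were analysed in R 4.3.3 with edgeR 4.0.16 (TMM, filterByExpr, robust quasi-likelihood fit of 6 groups over 16 libraries, quasi-likelihood test, Benjamini-Hochberg adjustment), and a gene was called at an adjusted *P*-value under 0.05 with a change of 1 or more on the log2 scale in either direction. DESeq2 1.42.0 was an alternative, also at the study's threshold of 0.5. Other alternatives were another scaling, filter, set of samples or replicate block, and leaving out each library. Scripts were tested on simulated data. CPM used TMM effective library sizes, and log2 CPM a prior count of 2. The s.e. of a log2 fold change was its size divided by the square root of the F statistic of the quasi-likelihood test. It is approximate, most so where a group has few counts. Library totals ranged from 3125048 to 13201410 counts, which puts the floor of 3 counts at 0.196 CPM over the sibling and 0.163 CPM over the mutant HSPCs. Intervals cover counting error only.

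The 10 genes and all gene lists were chosen with earlier results of these data known. Named genes were the 10, *dnmt1*, the 5 most like their mean profile, and at most 5 called genes per list and comparison with the smallest adjusted *P*-values, beside cell type markers.

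Same-numbered libraries deviated together from their group means between genotypes (correlation 0.194 to 0.431 over 6 pairs of ECs and HECs) and between HECs and ECs (0.127 to 0.190), so numbers, which are those of the column names, were taken as pairs there. Across HSPCs and another cell type the correlation was also higher for same-numbered libraries (0.0877 to 0.218 over 8 pairs) than for others (-0.218 to 0.0865 over 16). Numbers were not read as pairs there, apart from the replicate block.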

Additional observations from a re-analysis of the deposited data

How the results depend on the processing

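For the 10 genes, 67 fitted differences were followed, all those between cell types and the printed ones that involve genotype. They kept their sign under the 879 alternatives computed for them, of which 780 left the call as it was, 43 ended it and 56 brought one. Among the 879 are a setting without the fold minimum and DESeq2 at 0.5. Those only move the thresholds of the main fit and of DESeq2, so they add nothing on signs. Differences involving genotype that are not printed one by one did change sign, 8 times with other processing and 45 times on leaving out a library. Counts of signs given for those are from the main fit. Counts of calls moved more, and the cause was not tested. Counts are given as all genes, then the 10. For HECs against ECs in siblings they were 53 and 1 with no filter, 111 and 3 with at least 10 counts in every library, 0 and 0 with only these groups, 198 and 2 with the replicate block, 1142 and 7 by DESeq2 and 5250 and 10 by DESeq2 at 0.5. In mutants they were 20 and 0, 6 and 0, 82 and 2, 168 and 0, 1256 and 3, and 5768 and 8 in the same order. For HSPCs against HECs in siblings they were 114 and 1 with at least 10 counts in every library, 0 and 0 with only these groups, 588 and 7 with the replicate block, 1487 and 9 by DESeq2 and 6309 and 10 at 0.5, and in mutants 129 and 0 with at least 10 counts, 812 and 7 with the block, 1906 and 10 by DESeq2 and 6747 at 0.5. The filter of 10 counts removes genes at or near 0 in HSPCs by construction. For HSPCs against ECs in siblings the filter left 1 of the 10 to test, *egfl7*, which was called. Only these groups gave 366 genes, DESeq2 2592 and DESeq2 at 0.5 7914. In mutants the filter left 3 to test, *tek*, *esama* and *mmrn2b*, and all were called. There the block gave 1294 genes, DESeq2 2002 and DESeq2 at 0.5 6490. The number of all genes called with the filter is not given here for this step. Between genotypes DESeq2 called 37, 30 and 48 genes in ECs, HECs and HSPCs, and 215, 123 and 135 at 0.5, while edgeR with no filter called 1 in HSPCs. For the dependence on genotype DESeq2 called 36, 19 and 18 genes, and 155, 83 and 120 at 0.5.

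Leaving out each library in turn gave 0 to 190 genes and 0 to 2 of the 10 for HECs against ECs in siblings (190 without EC replicate 1 and 166 without HEC replicate 2), and 0 to 1 genes and 0 of the 10 in mutants. HSPCs against HECs gave 105 to 325 genes and 6 to 8 of the 10 in siblings, and 150 to 185 and 6 to 7 in mutants. HSPCs against ECs gave 439 to 1108 and 7 to 9 in siblings, and 317 to 540 and 6 to 8 in mutants. Where this left 1 HSPC library, it was assumed to vary like the other groups. All genotype comparisons stayed at 0. RLE scaling moved the median of all genes for HSPCs against HECs from 0.0028 to 0.16 in siblings and from 0.085 to 0.25 in mutants, with calls there of 205 higher and 204 lower against 181 and 257 with TMM, and every sign of the 10 kept in all cell-type comparisons. Beside the calls that the text gives as lost, *tek* lost its call for HSPCs against ECs with no filter in both genotypes (adjusted *P* by edgeR 0.0887 and 0.0819), *esama* lost its call for HSPCs against HECs with no filter in siblings (0.051) and mutants (0.0669), and in mutants also with RLE scaling (0.0527) and the filter of 10 counts (0.0662). The replicate block changed no other call of the 10. No result rested on a group of 4 or more libraries, so none was screened for outlying samples.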
